A study of Mus musculus with 4 samples.

Results

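Interleukin 1 is a signal whose strength is set by genes that act for it and genes that act against it. Such genes were followed here in macrophages and monocytes of the mouse colon. The agonists were Il1a and Il1b, which encode interleukin 1 alpha and interleukin 1 beta. Il18, which encodes the related cytokine interleukin 18, was followed beside them and entered no ratio of agonists to inhibitors. The inhibitors were Il1rn, the interleukin 1 receptor antagonist, and Il1r2, the decoy receptor. These 5 genes were taken by symbol from the 28692 genes of the table. Il1a (ENSMUSG00000027399, chromosome 2, 129299610 to 129309972, minus strand), Il1b (ENSMUSG00000027398, chromosome 2, 129364570 to 129371139, minus strand) and Il1rn (ENSMUSG00000026981, chromosome 2, 24336853 to 24351494, plus strand) share a chromosome. Il1r2 (ENSMUSG00000026073) lies on chromosome 1 at 40074079 to 40125231 and Il18 (ENSMUSG00000039217) on chromosome 9 at 50554827 to 50581840, both on the plus strand (mm10, positions of GENCODE release M21, all protein coding).

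The cells came from the colon lamina propria, the layer under the gut epithelium, of 4 male C57/Bl6N mice. Diesel exhaust particles (DEP) had been given by gavage to 2 mice (DEP 11 and DEP 13) at 12 µg in 200 µL of phosphate-buffered saline (PBS) on 5 days a week for about 6 months. The 2 control mice (PBS 2 and PBS 3) had received PBS alone on the same schedule, and the age of the mice was not given in the sources used here. Cells positive for CD11b and for Ly6C or CD64 were sorted, which selects monocytes and macrophages, and each mouse filled 1 well of a droplet device that tags every captured transcript with a unique molecular identifier (UMI). The study asked how particles in the gut change intestinal macrophages, and 2 mice a group limit every comparison of exposure.

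Interleukin 1 beta and interleukin 18 are made as inactive precursors that caspase 1, activated in an inflammasome, cuts into the secreted cytokines, whereas interleukin 1 alpha can signal without being cut. Interleukin 1 alpha and beta bind the same receptor, which signals through Myd88 to NF-kB. The receptor antagonist occupies that receptor without a signal, and the decoy receptor binds interleukin 1 but lacks the part that signals. Macrophages of the gut wall are replaced by blood monocytes, which lose Ly6c2, a gene of newly arrived monocytes, and gain C1qa, a complement gene of mature macrophages. All values given are of RNA, so neither precursor cutting nor secreted protein was measured.

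The sequences before the start sites of Il1b, the most abundant agonist, and of Il1r2, the inhibitor whose level differed most between monocyte-like and mature barcodes, are shown as context. They are the 250 bases before the RefSeq start (GRCm38.p6, the mm10 assembly), read 5′ to 3′ along the gene, at chr2:129371140-129371389 on the minus strand for Il1b and at chr1:40085843-40086092 on the plus strand for Il1r2. The Il1r2 window lies inside the GENCODE gene span given for Il1r2, so its RefSeq start, and the matches before it, are downstream of the start of that span. Capitals mark matches to the motifs searched.
Il1b: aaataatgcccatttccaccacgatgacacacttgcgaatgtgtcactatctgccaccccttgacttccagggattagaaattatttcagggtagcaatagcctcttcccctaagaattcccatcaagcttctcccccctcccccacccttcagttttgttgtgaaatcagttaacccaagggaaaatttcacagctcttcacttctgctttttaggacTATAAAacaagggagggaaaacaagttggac
Il1r2: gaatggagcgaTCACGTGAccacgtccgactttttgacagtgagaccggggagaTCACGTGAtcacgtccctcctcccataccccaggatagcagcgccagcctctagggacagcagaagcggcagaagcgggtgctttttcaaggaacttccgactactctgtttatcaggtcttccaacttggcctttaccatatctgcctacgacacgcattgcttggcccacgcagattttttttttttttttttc

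The motifs were TATAAA (the TATA box core), TCACGTGA (an E-box with its flanks), TGANTCA (the AP-1 motif) and an NF-kB type motif (GGGA, any 4 bases, CC), each sought on both strands in the 7 windows of the 5 members. No 2 matches overlapped. Il1b held TATAAA with its first base 31 bases before the start, and Il1a held it at 32 bases, a motif found in 12.4% of all 32851 windows of this length. Il1r2 held TCACGTGA 2 times, at 239 and 196 bases before the start, against 0.785% of all windows with at least 1 match. TGANTCA stood in the Il1a window and in 1 of the Il1rn windows and is found in 6.75% of all windows, and the NF-kB type motif stood in the same Il1rn window (17.6% of all). In the Il18 window the single match was TATAAA at 175 bases. These are matches of letters and describe no measured binding.

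The table held 6954 barcodes, of which 4771 with at least 1000 UMIs were used here (675 to 1582 a mouse, median 5328.5 to 7115.5 UMIs a barcode). The study describes far fewer cells after its own filter, which 4623 barcodes passed here, and the sources used here give no reason. DEP 13 was the shallowest library, with 4489342 UMIs in all against 7585591 to 10293703 in the other mice. Among the barcodes used, 206 (3.24% to 6.22% a mouse) carried marker genes of lymphocytes or plasma cells, which the sort should have removed. Of 8 neutrophil markers, S100a9 was at 0, Cxcr2 and Retnlg at 2 each and S100a8 at 11 UMIs, whereas Mmp9 had 86, Lcn2 110, Mmp8 209 and Csf3r 1038 UMIs, and their part in the members' values was not tested. Of 4 mast cell markers, Cpa3, Mcpt4 and Fcer1a were at 0 and Kit was detected, at 1.55 to 3.41 CPM. Libraries shared 36 barcode strings, but all 6954 strings begin with the same 9 bases and so are not the sequences read, and this count says nothing about cells shared by libraries. Genes induced by tissue handling, such as Fos, Jun and Hspa1a, had lower estimates in DEP mice for 18 of 19 (median log2 fold change −0.50, against −0.01 over all genes; 0 of them called), and summed to 11740 to 13684 counts per 1000000 UMIs (CPM) in DEP mice against 14848 to 17161 CPM in PBS mice. Their part in the members' values was not tested.

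Il1b exceeded every other member by a wide margin. Since each UMI stands for 1 captured 3′ end whatever the length of the transcript, levels of different genes are given side by side in CPM. Over all barcodes Il1b averaged 2936 ± 671 CPM (SD, n = 4 mice), Il1rn 69.2 ± 17.2, Il1r2 54.4 ± 9.20, Il18 31.6 ± 3.14 and Il1a 12.2 ± 4.73 CPM. The ranges of Il1rn (50.5 to 91.9 CPM) and Il1r2 (44.1 to 62.8 CPM) overlapped, so the order of the inhibitors was not separated from the spread of the mice. The lowest Il1r2 value lay above the highest of Il18 (35.6 CPM), and the lowest of Il18 (28.5 CPM) above the highest of Il1a (18.0 CPM). Il1a rested on 383 UMIs in 4.15% of barcodes, below the 5% needed for a test over all barcodes.

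Whether DEP changed the agonists, Il18 or the inhibitors was asked first over all barcodes of a mouse. In bulk sums of this kind, fewer cells of a type and less RNA per cell cannot be told apart. Il1b was at 3460 and 2564 CPM in DEP 11 and DEP 13 and at 3541 and 2179 CPM in PBS 2 and PBS 3. Each group held a high and a low mouse and the groups overlapped, with a log2 fold change of 0.09 (SE 0.22). Il1a was at 18.0 and 9.64 CPM in DEP mice and at 7.35 and 14.0 CPM in PBS mice, again overlapping. Il18 was at 32.5 and 28.5 CPM in DEP mice and at 35.6 and 29.8 CPM in PBS mice, overlapping as well, with a log2 fold change of −0.09 (SE 0.17). With 1 mouse left out, Il1b ran from −0.18 (without PBS 3) to 0.42 (without PBS 2), and turned without DEP 11 too, and Il18 ran from −0.16 (without PBS 3) to −0.011 (without PBS 2).

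Of the inhibitors, Il1r2 was the member whose mice separated by exposure. It was at 62.8 and 61.5 CPM in DEP 11 and DEP 13 and at 44.1 and 49.2 CPM in PBS 2 and PBS 3, so that both DEP mice lay above both PBS mice. Its log2 fold change was 0.41 (SE 0.16), which did not pass the correction (edgeR quasi-likelihood test, unadjusted p = 0.0336, adjusted p = 0.997). Dendritic cell markers separated the groups in the same direction, with a sum of 55.1 to 74.4 CPM in DEP mice and 39.4 to 46.7 CPM in PBS mice, and T cell markers in the other, with 17.2 to 26.3 against 34.7 to 37.9 CPM, and the mast cell sum, which is Kit alone, was 1.84 to 3.41 against 1.55 to 1.59 CPM. Their part in the Il1r2 values was not tested. Il1rn was at 50.5 and 70.2 CPM in DEP mice and at 91.9 and 64.3 CPM in PBS mice, which overlapped, with a log2 fold change of −0.36 (SE 0.22, adjusted p = 0.997). That value was −0.11 without DEP 11, −0.66 without DEP 13, −0.15 without PBS 2 and −0.55 without PBS 3.

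Non-overlap was thus seen for 1 of the 4 members tested, and it was seen for 26.6% of the 6609 genes tested, so it was common. None of the 4 tested members was called at a false discovery rate of 5%, where 0% of all genes were (edgeR quasi-likelihood test). At an unadjusted p under 0.05 stood 1 member (Il1r2) and 171 genes; the edgeR likelihood ratio test called 8 genes and DESeq2 4, with 0 members by each. A plot of the 5 genes by mouse gives these values.

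**Figure D1:**
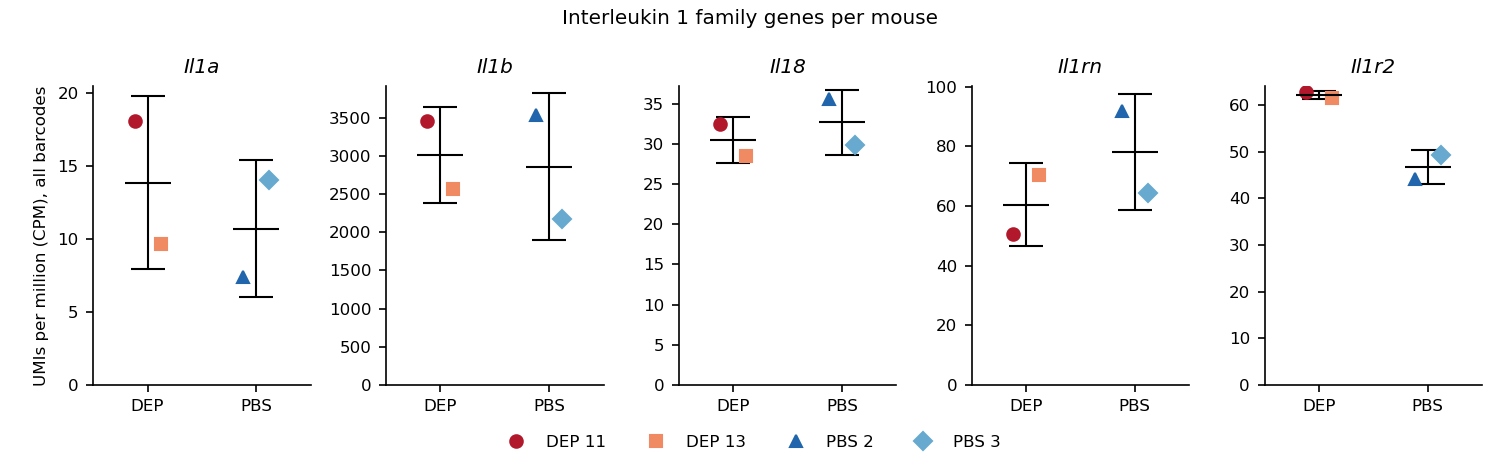
Counts per 1000000 UMIs (CPM, y axis from 0, a scale of its own for each gene) of the 5 genes in all barcodes with at least 1000 UMIs, by group on the x axis. Points are mice, and black bars the mean and SD of the 2 mice of a group. Il1r2 is the gene whose DEP mice (62.8 and 61.5 CPM) both lie above the PBS mice (44.1 and 49.2 CPM); the other genes overlap.

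The barcodes were then divided by Ly6c2 and C1qa. A barcode counted as Ly6c2-high with any Ly6c2 UMI, since the median was 0, and as C1qa-high above 33.6 C1qa UMIs per 10000. These classes are ranges of a continuous level and not cell types, with 1003 barcodes holding exactly 1 Ly6c2 UMI and 160 within 1 UMI of the C1qa limit. Ly6c2-high C1qa-low barcodes (1266, monocyte marker sum 4476 to 5764 CPM a mouse) were set against Ly6c2-low C1qa-high barcodes (1658, monocyte marker sum 513 to 842 CPM). The monocyte marker sum includes Ly6c2 itself, which is at 0 in the latter by rule, so part of this difference was fixed by the limits. The macrophage marker sum, which includes C1qa itself, was 14269 to 21924 CPM in the former and 54124 to 63480 CPM in the latter. The latter held 36.0% and 42.8% of barcodes in DEP 11 and DEP 13 and 32.9% and 31.9% in PBS 2 and PBS 3, without overlap. Shares of the former overlapped, at 26.4% and 23.0% against 29.0% and 26.2%. Their part in the Il1r2 difference over all barcodes was not tested.

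Il1r2 was higher in the mature class. In Ly6c2-high C1qa-low barcodes it was at 27.9, 19.6, 17.3 and 27.0 CPM in DEP 11, DEP 13, PBS 2 and PBS 3. In Ly6c2-low C1qa-high barcodes it was at 74.3, 82.6, 55.5 and 60.6 CPM in the same order. The mean went from 23.0 ± 5.32 to 68.3 ± 12.5 CPM (SD, n = 4 mice), 2.97 fold higher, with no overlap and the same direction in all 4 mice. The log2 fold change was 1.45 (SE 0.13, adjusted p = 4.10e-08, edgeR quasi-likelihood test with the mouse as a block). Markers of other cells differed between the classes too. Plasma cell markers summed to 15000 to 47209 CPM in Ly6c2-high C1qa-low barcodes and 1151 to 3123 CPM in Ly6c2-low C1qa-high barcodes, and the sums of neutrophil (54.1 to 73.8 against 32.3 to 41.6 CPM), T cell (20.5 to 52.1 against 3.82 to 15.6 CPM), dendritic cell (54.9 to 112 against 10.0 to 24.7 CPM) and eosinophil markers (4.71 to 22.5 against 1.44 to 3.17 CPM) did not overlap either. Without barcodes that held lymphocyte markers, a setting chosen after seeing the data, the log2 fold change of Il1r2 was 1.51 (adjusted p = 3.41e-08).

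The receptor antagonist did not follow the decoy receptor. Il1rn was at 46.7, 55.1, 105 and 75.8 CPM in Ly6c2-high C1qa-low barcodes and at 48.6, 59.2, 85.5 and 46.5 CPM in Ly6c2-low C1qa-high barcodes of DEP 11, DEP 13, PBS 2 and PBS 3. It was lower in the mature class in the PBS mice and slightly higher in the DEP mice, and the classes overlapped. The scaled log2 fold change of −0.33 (SE 0.12) passed the correction (adjusted p = 0.0316) but did not without PBS 2 (−0.34, adjusted p = 0.0686) or without PBS 3 (−0.14, adjusted p = 0.386). It also missed the threshold in DESeq2 (adjusted p = 0.225), with barcodes of at least 500 UMIs (0.0996) and with tertile class limits (0.181). Its sign turned (0.072) when the classes were set from counts thinned to 1000 UMIs a barcode. Without lymphocyte-marker barcodes, a setting chosen after seeing the data, the log2 fold change of Il1rn was −0.48 and passed the correction.

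Il18, the related cytokine, was lower in the mature class. It was at 31.7, 33.6, 49.8 and 30.7 CPM in Ly6c2-high C1qa-low barcodes and at 31.0, 22.4, 30.6 and 28.0 CPM in Ly6c2-low C1qa-high barcodes, lower in each of the 4 mice although the classes overlapped. Its log2 fold change was −0.42 (SE 0.13, adjusted p = 0.0156), and the call was lost without PBS 2 (−0.27, adjusted p = 0.211), without DEP 13 (adjusted p = 0.0546) and in DESeq2 (adjusted p = 0.147).

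Il1b stood at 3224, 2284, 4139 and 1841 CPM in Ly6c2-high C1qa-low barcodes and at 3217, 2471, 3149 and 2169 CPM in Ly6c2-low C1qa-high barcodes. Mice differed more than classes, and its log2 fold change was −0.07 (SE 0.06, adjusted p = 0.395), with 0.038 without PBS 2 and −0.14 without PBS 3. Without lymphocyte-marker barcodes it was −0.18 and passed the correction (adjusted p = 0.0199). Il1a, which could not be tested in this comparison, was at 13.4, 6.54, 6.28 and 4.51 CPM in Ly6c2-high C1qa-low barcodes and at 23.2, 14.8, 8.49 and 22.2 CPM in Ly6c2-low C1qa-high barcodes, higher in the mature class in each mouse on 59 and 204 UMIs.

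Of the 4 members tested between these classes, 3 passed the correction, where 39.8% of the 6656 genes tested did. Il1r2 was the 1 member called higher in the mature class (19.4% of genes were), and Il1rn and Il18 were the 2 called lower (20.4% of genes were). DESeq2 called 1 member, Il1r2, where it called 1600 of the 6656 genes. The fit without the mouse as a block also called Il1r2 alone, where it called 1759 of the 6656 genes.

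The remaining barcodes formed a Ly6c2-high C1qa-high class (710 barcodes) and a Ly6c2-low C1qa-low class (1137 barcodes), which entered no test. The Ly6c2-high C1qa-high class resembled the mature class in Il1r2, at 71.4 ± 13.7 CPM (SD, n = 4 mice). In the Ly6c2-low C1qa-low class, Il1rn reached 66.0, 143, 106 and 99.9 CPM and Il1b 4378, 3133, 4383 and 2553 CPM in DEP 11, DEP 13, PBS 2 and PBS 3. Both were higher there than in any other class of the same mouse, in all 4 mice. For Il1rn in PBS 2 the values were nearly equal, at 106 CPM on 116 UMIs against 105 CPM on 268 UMIs in the Ly6c2-high C1qa-low class. These barcodes had Ccr2, the monocyte chemokine receptor, at 725 ± 103 CPM against 664 ± 73.4 CPM in the Ly6c2-high C1qa-low class, and dendritic cell markers summed to 89.9 to 191 CPM, against 54.9 to 112 CPM in the Ly6c2-high C1qa-low class and 10.0 to 24.7 CPM in the Ly6c2-low C1qa-high class. T cell markers summed to 57.0 to 157 CPM, above each of the other classes (at most 52.1 CPM), and handling genes to 12961 to 19705 CPM (11387 to 18704 CPM in the other classes). The part of these in the levels was not tested.

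**Figure D2:**
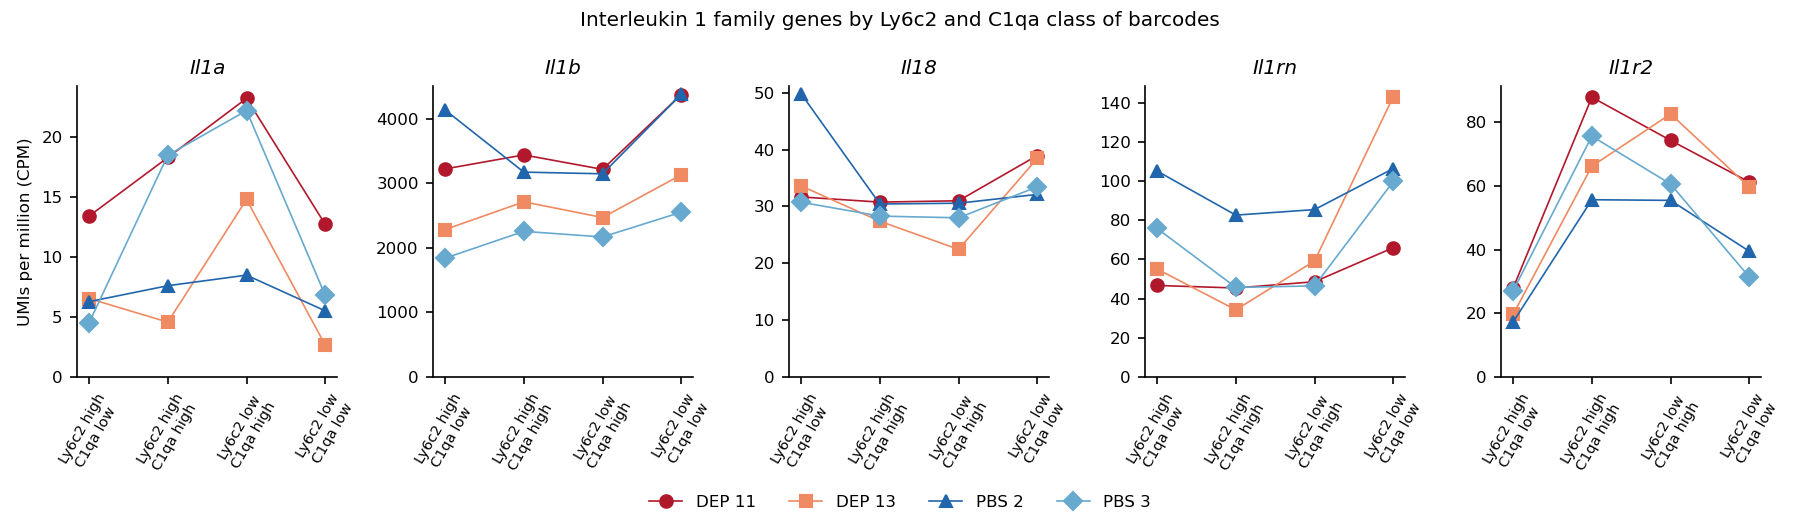
CPM (y axis from 0, a scale of its own for each gene) of the 5 genes in 4 classes of barcodes set by Ly6c2 and C1qa (x axis). Each point is a mouse, and lines join the points of a mouse without implying an order of the classes. Il1r2 is lowest in the Ly6c2-high C1qa-low class in every mouse (17.3 to 27.9 CPM), and Il1rn is highest in the Ly6c2-low C1qa-low class (66.0 to 143 CPM). In PBS 2 that Il1rn value (106 CPM) nearly equals the Ly6c2-high C1qa-low value (105 CPM).

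Exposure was compared within the 2 main classes. In Ly6c2-high C1qa-low barcodes, Il1rn was at 46.7 and 55.1 CPM in DEP mice and at 105 and 75.8 CPM in PBS mice, with both DEP mice below both PBS mice. Its log2 fold change was −0.80 (SE 0.23), with an unadjusted p of 0.00336 and an adjusted p of 0.9999 (edgeR quasi-likelihood test), so it failed the correction. The value was −1.35 with tertile class limits and −0.43 with classes from thinned counts. C1qa separated the groups in this class as well, at 1039 and 1006 CPM in DEP mice and 1430 and 1278 CPM in PBS mice. So did the handling genes, at 11548 to 12998 against 14174 to 18704 CPM, and Kit, at 0 to 0.537 against 0.820 to 1.18 CPM. Their part in the Il1rn difference was not tested. Il1b (−0.06, SE 0.25), Il18 (−0.27, SE 0.27) and Il1r2 (0.15, SE 0.33, and 0.94 with classes from thinned counts) overlapped between the groups. With PBS 2 left out all 3 turned (0.52, 0.022 and −0.21), and with PBS 3 left out they were −0.47, −0.50 and 0.62; Il1b turned without DEP 13 too (0.11) and Il1r2 without DEP 11 (−0.071). Il1a, not tested here, was at 13.4 and 6.54 CPM in DEP mice and at 6.28 and 4.51 CPM in PBS mice, on 7 to 25 UMIs a mouse.

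In this class, non-overlap was seen for 1 of the 4 members tested and for 27.7% of the 6187 genes, and 0 members and 0% of genes passed the correction. Unadjusted p-values under 0.05 numbered 170 genes, among them Il1rn. The edgeR likelihood ratio test called 2 genes and DESeq2 0, with 0 members by each.

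In Ly6c2-low C1qa-high barcodes, Il1r2 was the member that separated the groups, at 74.3 and 82.6 CPM in DEP mice and at 55.5 and 60.6 CPM in PBS mice. The log2 fold change was 0.45 (SE 0.18, unadjusted p = 0.0280, adjusted p = 0.999, edgeR quasi-likelihood test), and it was 0.14 with each barcode thinned to 1000 UMIs and 0.27 with tertile class limits. Monocyte markers separated the groups in this class too, with a sum of 513 to 619 CPM in DEP mice and 705 to 842 CPM in PBS mice, as did Ccr2 among them (220 to 262 against 289 to 325 CPM), the handling genes (11387 to 13935 against 15172 to 16367 CPM), and the sums of T cell (3.82 to 5.28 against 9.34 to 15.6 CPM) and stroma markers (3.34 to 4.23 against 8.66 to 9.62 CPM). Kit was higher in DEP mice, at 2.87 to 3.87 against 0.577 to 2.26 CPM. Their part in the Il1r2 difference was not tested. Il1a, tested in this class, was at 23.2 and 14.8 CPM in DEP mice and at 8.49 and 22.2 CPM in PBS mice (log2 fold change 0.33, SE 0.40), and the value was −0.020 without DEP 11, 0.58 without DEP 13, −0.22 without PBS 2 and 1.24 without PBS 3. Il1b (0.12, SE 0.18), Il18 (−0.10, SE 0.23) and Il1rn (−0.27, SE 0.25) overlapped as well, and each turned with a mouse left out, Il1b without DEP 11 (−0.057) or PBS 3 (−0.091), Il18 without DEP 13 (0.073) and Il1rn without PBS 2 (0.18). Non-overlap held for 1 of the 5 members and for 30.2% of the 6899 genes tested, and 0 members and 0% of genes were called, with 248 genes at an unadjusted p under 0.05, 10 called by the likelihood ratio test and 3 by DESeq2, no member among the calls.

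An interaction term asked whether DEP acted differently in the 2 classes. The term is the log2 fold change of DEP against PBS in Ly6c2-low C1qa-high barcodes minus that in Ly6c2-high C1qa-low barcodes. For Il1rn, with estimates of −0.27 and −0.80 in these classes, it was 0.53 (SE 0.21), a smaller decrease in the mature class. It did not pass the correction (edgeR quasi-likelihood test, unadjusted p = 0.0179, adjusted p = 0.637). It was 1.09 with tertile class limits, 0.10 with classes from thinned counts, 0.81 without PBS 2 and 0.32 without PBS 3. The same difference was 0.25 (SE 0.27) for Il1r2, 0.21 (SE 0.27) for Il18 and 0.13 (SE 0.12) for Il1b. Each of these turned with a mouse left out, Il1r2 without PBS 3 (−0.086), Il18 without DEP 11 (−0.18) or PBS 2 (−0.071) and Il1b without PBS 2 (−0.16). The test called 0 of the 4 members, where it called 0.270% of 6656 genes; at an unadjusted p under 0.05 stood 412 genes and 1 member, and the likelihood ratio test called 38 genes and DESeq2 13, with 0 members.

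The balance of agonist to inhibitor was described as a ratio of UMIs, with no test. Over all barcodes there were 68.5, 36.5, 38.5 and 33.9 Il1b UMIs for each Il1rn UMI in DEP 11, DEP 13, PBS 2 and PBS 3. DEP 11 stood apart from the other 3 mice, and the groups overlapped. For each Il1r2 UMI there were 55.1, 41.7, 80.3 and 44.3 Il1b UMIs, also overlapping. Il1a and Il1b together outnumbered Il1rn and Il1r2 together by 30.7, 19.5, 26.1 and 19.3 to 1. In no mouse did the inhibitors come near the agonists in number.

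By class, the ratio to the decoy receptor moved and the ratio to the antagonist did not move in 1 direction. Il1b to Il1r2 went from 116, 116, 240 and 68.0 in Ly6c2-high C1qa-low barcodes to 43.3, 29.9, 56.8 and 35.8 in Ly6c2-low C1qa-high barcodes, lower in 4 of 4 mice by a mean of 3.02 fold. Il1b to Il1rn went from 69.0, 41.5, 39.4 and 24.3 to 66.2, 41.7, 36.8 and 46.7, lower in 2 mice and higher in 2. The combined ratio was 43.4, 30.7, 33.9 and 17.9 in the former class and 26.4, 17.5, 22.4 and 20.5 in the latter, lower in 3 of 4 mice. The inhibitors themselves changed places, with 0.598, 0.356, 0.164 and 0.357 Il1r2 UMIs for each Il1rn UMI in Ly6c2-high C1qa-low barcodes and 1.53, 1.40, 0.649 and 1.30 in Ly6c2-low C1qa-high barcodes. Antagonist RNA thus outnumbered decoy receptor RNA in the monocyte-like class of every mouse, and in the mature class of PBS 2.

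**Figure D3:**
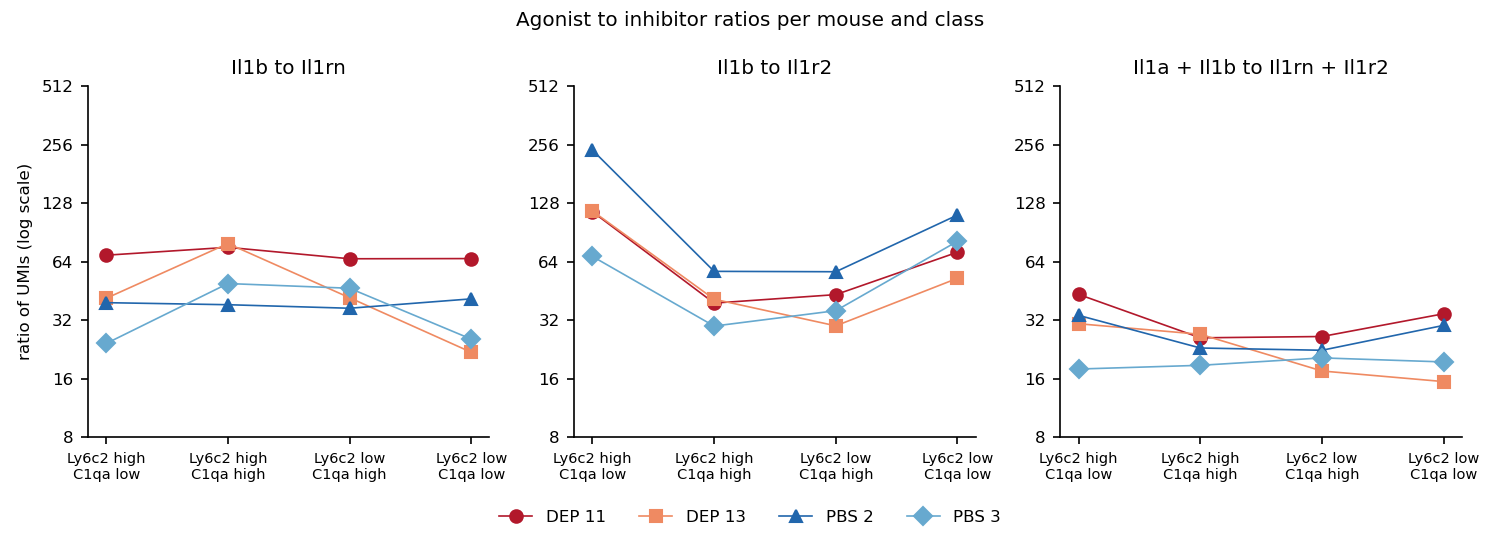
Ratios of UMIs on a log scale (y axis) in 4 classes of barcodes (x axis), from left to right Il1b to Il1rn, Il1b to Il1r2, and both interleukin 1 agonists to both inhibitors. Points are mice, joined by lines for reading only. Il1b to Il1r2 is highest in the Ly6c2-high C1qa-low class in DEP 11, DEP 13 and PBS 2 (116, 116 and 240), whereas Il1b to Il1rn keeps no common order.

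Dividing the barcodes of each mouse into 5 equal bins by C1qa gave a finer view, with no test. Il1r2 averaged 32.2 ± 8.29, 30.2 ± 14.1, 55.6 ± 15.6, 86.9 ± 20.0 and 50.4 ± 12.2 CPM from the lowest to the highest bin (SD, n = 4 mice). The decoy receptor thus peaked in bin 4, in each of the 4 mice, and not in the barcodes richest in C1qa. Il1a had its highest mean in the same bin, at 20.9 ± 10.4 CPM against 6.00 ± 2.91 CPM in the lowest. Il1rn was highest in the middle, at 94.9 ± 28.9 and 98.1 ± 23.8 CPM in bins 2 and 3, against 58.1 ± 20.3 CPM in the lowest and 48.0 ± 14.4 CPM in the highest. Il18 had its highest mean, 40.7 ± 5.99 CPM, in the lowest bin and was at 28.3 ± 2.55 CPM in the highest. Depth differed between the bins, with per-mouse medians of 6844.5 to 9968 UMIs in bin 4. They were 4472 to 5649 UMIs in the lowest bin and 6796.5 to 8473 UMIs in the highest. The part of depth in these levels was not tested.

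**Figure D4:**
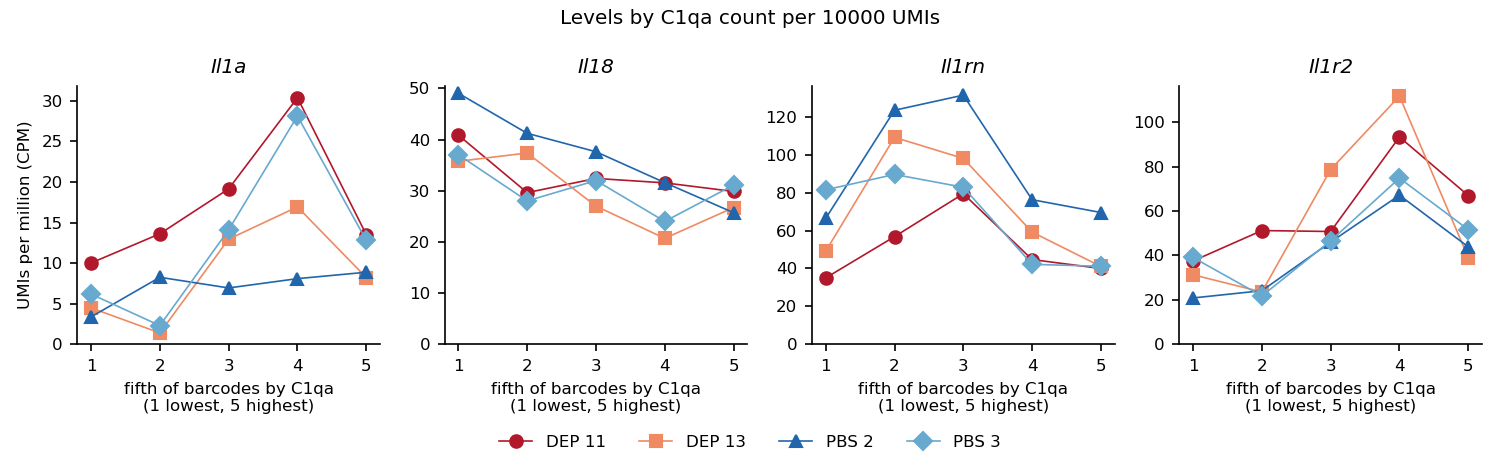
CPM (y axis from 0) of Il1a, Il18, Il1rn and Il1r2 in 5 equal bins of the barcodes of each mouse ordered by C1qa UMIs per 10000 (x axis); points are mice. Il1r2 peaks in bin 4 in all 4 mice (mean 86.9 CPM), and Il1rn averages most in bins 2 and 3 (94.9 and 98.1 CPM).

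Ly6c2 was graded as barcodes without a UMI and then 3 equal bins of those with one. Il1r2 ranged over the mice from 50.2 to 76.5 and from 51.4 to 81.8 CPM in the first 2 grades and averaged 24.2 ± 6.71 and 18.2 ± 9.72 CPM in the upper 2 (SD, n = 4 mice). Barcodes of the lowest grade with a Ly6c2 UMI were also the deepest, with medians of 8049 to 10404 UMIs against 4352 to 5826 in the highest grade. Il18 went the other way, from 30.3 ± 2.80 CPM without Ly6c2 to 40.4 ± 6.02 CPM in the highest grade. Il1rn, at 72.8 ± 16.3 and 61.2 ± 28.2 CPM at the ends, overlapped.

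The inhibitors were most abundant in the barcodes with most Il1b. With the C1qa-low barcodes of each mouse divided into 4 equal bins by Il1b per 10000 UMIs, Il1rn averaged 28.2 ± 10.3, 50.3 ± 23.9, 90.9 ± 29.8 and 179 ± 31.3 CPM from the lowest to the highest bin (SD, n = 4 mice). Il1r2 went from 16.7 ± 7.45 to 65.3 ± 22.7 CPM. In the C1qa-high barcodes the larger difference was that of Il1r2, from 29.3 ± 16.2 CPM in the lowest bin to 142 ± 23.0 CPM in the highest, with Il1rn at 42.1 ± 16.2 and 83.3 ± 36.5 CPM. In the highest Il1b bin, Il1rn thus exceeded Il1r2 in C1qa-low barcodes of every mouse (134 to 206 against 41.7 to 86.2 CPM). In C1qa-high barcodes Il1r2 exceeded Il1rn in DEP 11, DEP 13 and PBS 3, and not in PBS 2 (114 against 133 CPM).

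Il1a followed Il1b in both ranges of C1qa, from 1.68 ± 1.51 to 21.6 ± 13.8 CPM in C1qa-low and from 8.22 ± 5.66 to 30.3 ± 13.6 CPM in C1qa-high barcodes, on 6 to 147 UMIs a bin. Il18 did not, at 40.2 ± 5.25 and 37.8 ± 10.6 CPM in the lowest and the highest bin of the C1qa-low barcodes. Handling genes followed Il1b as well, at 11444 ± 2183 CPM in the lowest and 18843 ± 2841 CPM in the highest bin of C1qa-low barcodes and at 10652 ± 2105 and 16879 ± 1904 CPM of C1qa-high barcodes. In the C1qa-low barcodes Ly6c2 went down from the lowest to the highest bin, from 540 ± 125 to 238 ± 71.8 CPM, and C1qa went from 1110 ± 239 to 1421 ± 88.9 CPM. The part of these in the gradients was not tested. Median depth lay between 4261 and 6342 UMIs in the bins of C1qa-low barcodes and between 5919 and 9814 UMIs in those of C1qa-high barcodes.

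**Figure D5:**
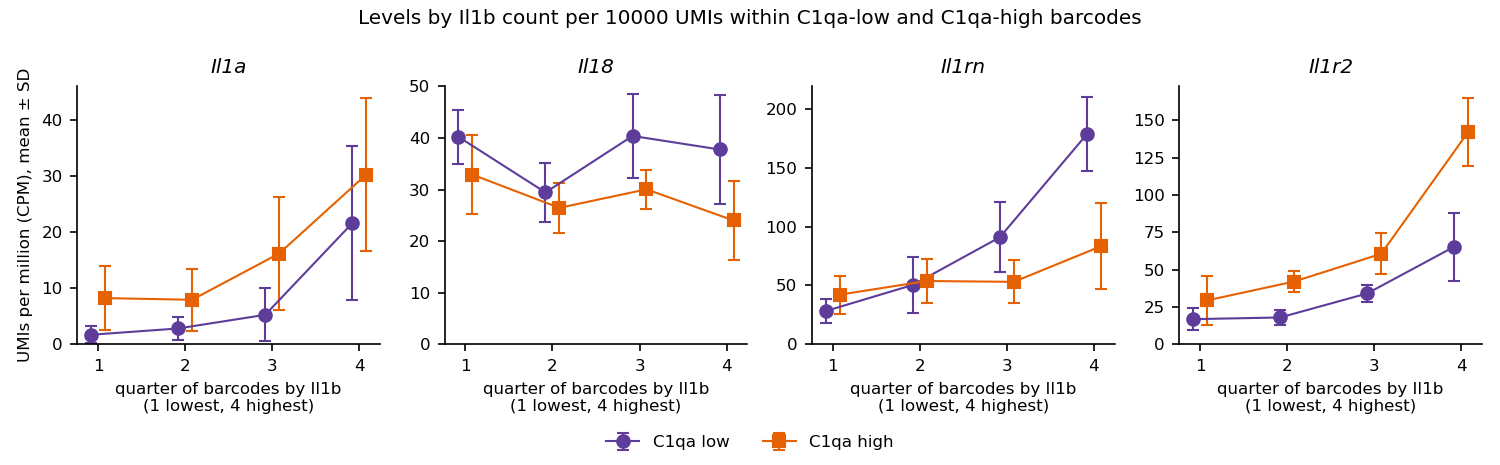
CPM (y axis from 0, mean and SD of 4 mice) of Il1a, Il18, Il1rn and Il1r2 in 4 equal bins of barcodes ordered by Il1b UMIs per 10000 (x axis), within C1qa-low (circles) and C1qa-high (squares) barcodes. In the highest bin Il1rn averages 179 CPM in C1qa-low barcodes and Il1r2 142 CPM in C1qa-high barcodes, and Il18 stays between 24.0 and 40.4 CPM.

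The members differed in how their RNA was spread over barcodes. The 477 of 4771 barcodes with most UMIs of a gene held 39.4% of Il1b UMIs, 65.3% of Il18, 74.5% of Il1rn and 80.1% of Il1r2. Il1a was found in 198 barcodes, of which the top 10 held 23.2% of its UMIs. A barcode carried at most 205 Il1b UMIs, 25 of Il1rn, 19 of Il1a, 15 of Il1r2 and 5 of Il18.

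Shares of barcodes with a UMI were compared after each barcode had been thinned to 1000 UMIs. They were 75.5% for Il1b, 5.30% for Il1rn, 4.19% for Il1r2, 3.58% for Il18 and 0.964% for Il1a, against 96.1%, 21.9%, 16.9%, 17.3% and 4.15% of unthinned barcodes. Lymphocyte-marker barcodes, which should hold little of these genes, showed an Il1b UMI in 61.2% after thinning and 93.2% before (median 9006 UMIs, against 5777 in the other barcodes). Among barcodes under 500 UMIs (median 287.5), 54.5% held an Il1b UMI. An Il1b UMI in a barcode therefore does not by itself mark an expressing cell, and doublets and free RNA cannot be told apart as its source. Levels were higher outside the lymphocyte-marker barcodes, at 3064 ± 648 CPM for Il1b and 72.5 ± 17.4 CPM for Il1rn against 1544 ± 526 and 32.9 ± 9.31 CPM within them (SD, n = 4 mice). Barcodes under 500 UMIs went the other way, at 4559 ± 921 CPM for Il1b and, on 48 UMIs, 121 ± 75.2 CPM for Il1rn. Over all barcodes used, the values were 2936 ± 671 and 69.2 ± 17.2 CPM. The source of this RNA was not tested.

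After thinning, an Il1r2 UMI was seen in 1.74% of Ly6c2-high C1qa-low and 5.37% of Ly6c2-low C1qa-high barcodes, against 0.971% of lymphocyte-marker barcodes. For Il1rn the shares were 5.53% and 3.62% against 4.37%, and for Il18 they were 4.98% and 2.83% against 2.43%. The Il1rn share in the mature class was thus no higher than that of lymphocyte-marker barcodes, although its level was higher in every mouse (46.5 to 85.5 against 20.7 to 41.3 CPM), so no order is read from this share. For Il1a they were 0.632% and 1.33% against 0.485%.

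The rest of the interleukin 1 pathway was followed with a list of 31 genes. Of the other ligands and ligand inhibitors, the interleukin 36 genes Il36a, Il36b, Il36g and Il36rn and the gene Il1f10 had no UMI in any barcode, and Il33 had 7. Il18bp, which encodes the protein that neutralizes interleukin 18, had 304 UMIs. Receptors were scarce, with 9 UMIs of Il1r1, the signalling receptor for interleukin 1, and 103 of its partner Il1rap, 13 of Il18r1 and 16 of Il1rl1, so none of the 7 receptors reached the test. Genes of maturation and release were well detected, with Pycard, the inflammasome adaptor, at 312 CPM, Casp1, the caspase that cuts Il1b and Il18 precursors, at 69.4 CPM, Gsdmd, the pore through which they leave, at 64.7 CPM and the sensor Nlrp3 at 28.3 CPM over all barcodes.

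Between the classes, 7 of the 13 pathway genes tested passed the correction, 2 higher and 5 lower in Ly6c2-low C1qa-high barcodes (edgeR quasi-likelihood test), where 39.8% of all genes tested passed (19.4% higher and 20.4% lower). Il18bp was higher by 1.57 on the log2 scale (SE 0.21, adjusted p = 8.62e-06), with a UMI in 5.49% of all barcodes used. Il18 was called lower in that class, a call lost without PBS 2, without DEP 13, in DESeq2 and without the mouse as a block. Peli1, a ubiquitin ligase that acts in this pathway, was higher by 0.60 (SE 0.09). Lower were Pycard (−0.23, SE 0.06), Casp1 (−0.37, SE 0.09), Gsdmd (−0.48, SE 0.09), Myd88, the adaptor of the receptors (−0.45, SE 0.09), and Irak3, an inhibitor of their signalling (−0.88, SE 0.23). Nlrp3 did not pass the test (−0.15, SE 0.13). Between DEP and PBS mice, 0 of the 13 genes tested over all barcodes and 0 of the 12 tested in each class passed the correction, and the interaction called 0 of 13.

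Some genes had patterns very like those of the members. Over 16 sums, 4 classes of 4 mice, the highest Pearson correlations of log2(CPM + 1) among 6609 genes were 0.945 with Fes, 0.921 with Rps2 and 0.912 with the handling gene Zfp36 for Il1b. For Il1r2 they were 0.956 with Bcl2a1a, 0.956 with Adam19 and 0.938 with Bcl2a1d, and the 2 Bcl2a1 genes are near-identical copies whose reads may be split between them. For Il1rn they were 0.883 with Mefv, which encodes pyrin, 0.840 with Cdkn1a and 0.837 with Denr, and for Il18 0.862 with Etf1, 0.852 with Gch1 and 0.847 with Snrpb. Sums of 1 mouse share a library and sums of 1 class share its definition, so these values are descriptions.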

How the data were processed

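Per the labels and the methods of the study, single cells were captured with the 10x Genomics 3′ v2 kit, and the authors aligned reads with Cell Ranger and STAR 2.6.1a to mm10, merged the libraries without downsampling and deposited raw UMI counts per gene and barcode, 1 table for all mice (R 3.5.1 is also named in the submitters' processing notes). The mouse of a barcode was read from its suffix. Symbols of 28339 of 28692 Ensembl identifiers came from GENCODE release M21, and promoter sequences from RefSeq (GRCm38.p6). The members and gene lists were chosen with earlier results of these data known.

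Barcodes with at least 1000 UMIs were kept and no doublet caller was run. UMIs were summed per mouse and class. A gene was tested if it exceeded 1 CPM in at least 2 sums and was found in 5% or more of the barcodes summed, with the edgeR 4.0.16 quasi-likelihood test (TMM scaling, R 4.3.3, two-sided, Benjamini-Hochberg at 5%), which was checked on simulated data for DEP against PBS over all barcodes and for the class contrast. Residual degrees of freedom were 2 for DEP against PBS, 3 for the classes (mouse as a block) and 2 for the interaction. DESeq2 1.42.0 and other filters were alternatives. A class limit was the median over mice of the per-mouse median count per 10000 UMIs. Lymphocyte barcodes held at least 3 of 6 T cell, 3 of 5 B cell or 2 of 3 plasma cell markers, a rule chosen after seeing the data. Named genes were the members, the class genes, the pathway and handling lists, and the 3 genes most correlated with each tested member. Each mouse was its own library, sorted and loaded side by side.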

Additional observations from a re-analysis of the deposited data

Results flagged for a closer look

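Il1b in barcodes under 500 UMIs, which entered no comparison, was above the control mice in both DEP mice, at 5360 and 5130 CPM in DEP 11 and DEP 13 against 4436 and 3309 CPM in PBS 2 and PBS 3. It rested on 318 to 878 UMIs a mouse. Il1r2 in the same barcodes was at 67.2 and 48.4 CPM in DEP mice against 32.9 and 40.3 CPM in PBS mice, on 11, 3, 4 and 5 UMIs. C1qa was lower there in both DEP mice, at a mean of 1212 ± 117 CPM against 1701 ± 197 CPM (SD, n = 2 each), as was the macrophage marker sum, at 12019 to 13572 against 14031 to 19002 CPM. The sums of dendritic cell (30.5 to 32.3 against 8.22 to 24.2 CPM), T cell (67.2 to 80.7 against 49.3 to 56.4 CPM) and stroma markers (61.1 to 64.5 against 16.4 to 24.2 CPM) were higher in both DEP mice. Among the 4737 genes with at least 10 UMIs in these barcodes, both DEP mice lay above both PBS mice for 17.2% and below them for 15.2%, and for 2 of the 4 members among those genes they lay above. These differences were not tested.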

How the results depend on the processing

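Of 298 values of members under other settings, 262 kept their direction and side of the threshold. The higher Il1r2 of the mature class kept both under each setting in which it was tested. With counts thinned to 1000 UMIs it was not tested in that comparison, since Il1b alone passed the gene filter. Values of DEP against PBS rest on 2 mice a group, so a left-out mouse turned several directions. No paired analysis was possible because the DEP and PBS mice share no replicate number. Where 1 mouse stood alone, it was assumed to vary like the others.

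Genes called for DEP against PBS numbered 119 with no gene filter, 8 with the likelihood ratio test and 4 with DESeq2 over all barcodes (8 to 35 with a mouse left out). In Ly6c2-high C1qa-low barcodes they were 97, 2 with the likelihood ratio test and 2 with classes from thinned counts (0 to 17 with a mouse left out), and in Ly6c2-low C1qa-high barcodes 60, 10, 3 with DESeq2, 1 with tertile limits and 2 with thinned classes (0 to 26). No member was among them. Between the classes, 2648 genes and 3 members were called, against 1600 and 1 member in DESeq2 and 756 and 0 members with thinned counts. Without the mouse block they were 1759 and 1 member, and Il1rn (adjusted p = 0.358) and Il18 (0.0614) missed the threshold of the edgeR quasi-likelihood test. With a mouse left out, 2225 to 2400 genes and 1 to 3 members were called, and without lymphocyte barcodes 2601 genes and 4 members. The interaction called 18 genes, and 62 with no gene filter, 38 with the likelihood ratio test, 64 at 500 and 33 at 2000 UMIs, 31 with the study filter, 10 with tertile limits, 7 with thinned classes, 39 without lymphocyte barcodes and 13 to 58 with a mouse left out.

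Reversed log2 fold changes of DEP against PBS were, with a mouse left out, Il1b (−0.18 to 0.42) over all barcodes, Il1b (−0.47 to 0.52), Il1r2 (−0.21 to 0.62) and Il18 (−0.50 to 0.022) in Ly6c2-high C1qa-low barcodes, and Il1a (−0.22 to 1.24), Il1b (−0.091 to 0.36), Il18 (−0.34 to 0.073) and Il1rn (−0.61 to 0.18) in Ly6c2-low C1qa-high barcodes. In Ly6c2-high C1qa-low barcodes Il1b was 0.022 with thinned counts and Il1r2 −0.20 without lymphocyte barcodes. Between classes Il1b ranged from −0.14 to 0.038 with a mouse left out, and with thinned classes Il1b was 0.065 and Il1rn 0.072. For the interaction, Il1b (−0.16 to 0.38), Il1r2 (−0.086 to 0.63) and Il18 (−0.18 to 0.45) turned with a mouse left out, Il1r2 was −0.12 with tertile limits and −0.57 with thinned classes, and Il18 −0.067 with thinned classes. The log2 class difference of Il1b to Il1r2 was −2.30 after thinning, against −1.60. Unthinned shares with a UMI were 96.1% for Il1b, 21.9% for Il1rn, 16.9% for Il1r2, 17.3% for Il18 and 4.15% for Il1a. The cause of these changes was not tested.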

Other observations

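Barcodes rich in a member were not spread evenly over the classes. Of 36 barcodes with at least 3 Il1a UMIs, 23 (63.9%) were Ly6c2-low C1qa-high, a class that held 34.8% of all barcodes. Of 173 barcodes with at least 3 Il1r2 UMIs, 12 (6.94%) were Ly6c2-high C1qa-low, against 26.5% of all barcodes, and 55 (31.8%) were Ly6c2-high C1qa-high, against 14.9%. Of 25 barcodes with at least 3 Il18 UMIs, 12 (48.0%) were Ly6c2-high C1qa-low. The 225 barcodes rich in Il1rn were spread more evenly, with 30.2% in the Ly6c2-high C1qa-low and 29.3% in the Ly6c2-low C1qa-high class. Rich barcodes were deep, with medians of 7479 UMIs for Il1a, 9978 for Il1r2, 9743 for Il18 and 8035 for Il1rn, so depth was not matched between them and the rest.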
